A study of Mus musculus with 154 samples.

Results

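The strain (B6.A10 X B6.A14)F1 carried 1 A/J-derived copy of chromosome 10 from its sire and 1 A/J-derived copy of chromosome 14 from its dam on an otherwise C57BL/6J (B6) background, and the question was how far its liver RNA levels departed from the sum of what each chromosome did alone. Its 5 mice were compared, by the strain given in each sample label with the sire first, with 8 mice of (B6 X B6.A14)F1, which carried the A/J chromosome 14 from the dam, 8 mice of (B6.A10 X B6)F1, which carried the A/J chromosome 10 from the sire, and 20 mice of the control strain B6. The series held 113 more mice of the other 20 strains in the same table, and all mice were males of 5 weeks whose food had been withdrawn before the livers were taken. The substituted chromosomes were heterozygous in every strain other than B6, so effects that need 2 A/J copies cannot be seen, and each effect belongs to a whole chromosome rather than to a gene on it. All 13289 genes of the count table were tested. The number of counted reads per mouse was between 11183273 and 28698509 in the double strain, between 12421787 and 23161327 in the chromosome 14 strain, between 10209102 and 26900169 in the chromosome 10 strain and between 6752637 and 25630807 in B6. The labels do not tell which mice shared a litter or a sequencing run.

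In a chromosome substitution strain (CSS), a whole chromosome of the B6 strain is replaced by its counterpart from strain A/J, and the strain is compared with B6 to look for effects of variants on that chromosome. Genes on the substituted chromosome can respond to variants beside them (in cis), and genes elsewhere respond through an intermediary (in trans). If the chromosomes act independently, the effects of both add up on the log scale, and a departure from that sum is an interaction (epistasis). The liver of a fasted mouse burns fatty acids and makes ketone bodies and glucose, programmes driven by the nuclear receptor PPARalpha and by hormones, while pulses of growth hormone in males raise the major urinary proteins and other sex-biased genes.

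Here the interaction is the log2 level of the double CSS minus that of B6 and minus both single effects. It is written as above the sum when positive and below the sum when negative. Effects are log2 fold changes (log2FC) from 1 edgeR quasi-likelihood model of all mice of the series, which held 5 surrogate variables to take up variation between mice that strain did not explain. The standard errors after ± were calculated back from it, as the absolute log2FC divided by the square root of the test's F value. A gene was called at a false discovery rate (FDR) under 0.05, which is a Benjamini-Hochberg adjusted p-value from edgeR's quasi-likelihood test. All FDR values below are of this kind. Levels of single mice are given as CPM, the read counts scaled to a common library size with TMM factors, and are not adjusted for the surrogate variables. The 5 mice of the double CSS are always listed in the same order, and for the larger groups the lowest, the median and the highest mouse are given.

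The 4 strains differed in more than single genes. The summed level of 20 hepatocyte markers was between 88749 and 167761 CPM (median 125471) in (B6 X B6.A14)F1, against 147279 to 184217 in the double CSS, 141646 to 157508 in (B6.A10 X B6)F1 and 147952 to 202432 in B6. The lowest 3 mice of (B6 X B6.A14)F1 were at 88749, 94840 and 98309 CPM. The 13 measured mitochondrially encoded genes summed to 103235 to 157542 CPM in (B6 X B6.A14)F1, above every mouse of the double CSS (59617 to 95309). Of the other marker lists, endothelial markers (22 of 22 measured) summed to 958 to 1167 CPM in (B6 X B6.A14)F1 and 899 to 1030 in the double CSS, macrophage markers (20 of 20) to 738 to 1182 and 814 to 1268, and stellate cell markers (19 of 20) to 666 to 800 and 616 to 770. Their part in the results was not tested, and the total of interaction calls and the counts of the gene lists are given below also without those 3 mice. In bulk liver, fewer cells of a type and less RNA per cell cannot be told apart.

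Against B6, the double CSS differed at 70 of 13289 genes (0.527%), with 39 higher (0.293%) and 31 lower (0.233%). Of these, 61 lay on the substituted chromosomes. They were 35 of 610 genes on chromosome 10 (5.74%) and 26 of 430 on chromosome 14 (6.05%), whereas 9 of 12249 genes elsewhere were called (0.0735%). The single effects reached further. With the same 20 B6 mice as reference, chromosome 14 alone was called at 2996 genes (22.5%), of which 139 were on chromosome 14, and chromosome 10 alone at 882 genes (6.64%), of which 71 were on chromosome 10. The interaction was called at 553 genes (4.16%), with 325 above the sum (2.45%) and 228 below it (1.72%), a split that depended on the mice and the model as given next. The 553 genes lay on the substituted chromosomes about as often as elsewhere, with 52 of 1040 genes (5.00%, 95% Wilson interval 3.83% to 6.5%) against the rest of the genes (12249 genes, 4.09%, 3.75% to 4.46%), intervals that cover counting error only.

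**Figure D1:**
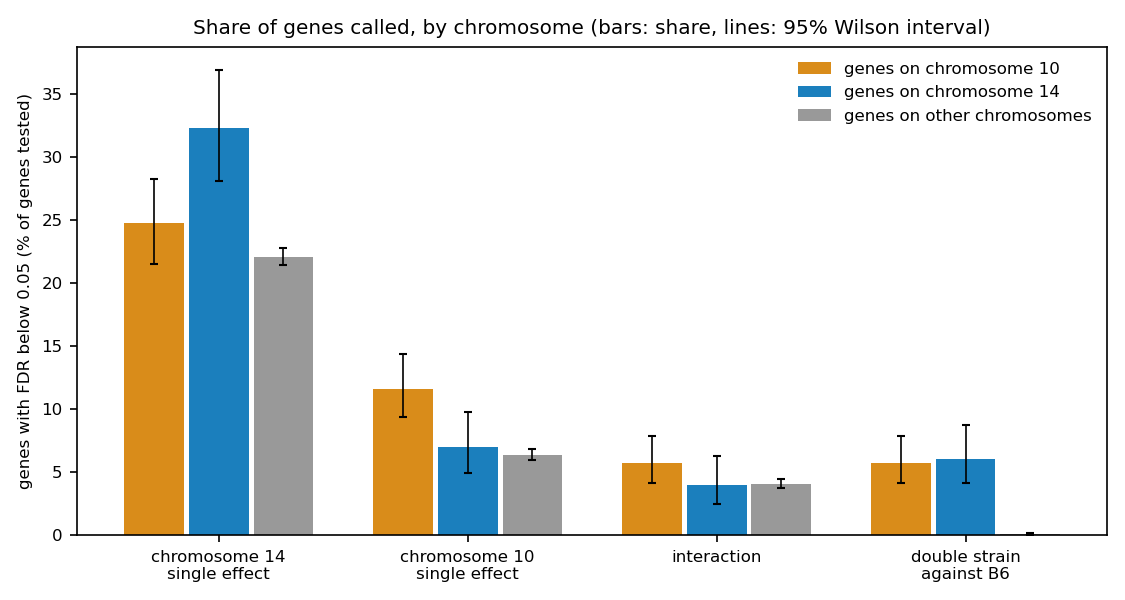
Share of the tested genes with an FDR below 0.05, in percent, for each comparison, split into genes on chromosome 10 (orange), on chromosome 14 (blue) and elsewhere (grey), with 95% Wilson intervals as lines. In the double CSS against B6 the shares are 5.74% and 6.05% on the substituted chromosomes and 0.0735% elsewhere. The FDR was adjusted separately for genes on and off the chromosomes substituted in each comparison, so the p-value cuts differ between them.

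The count of interaction calls depended on the chromosome 14 mice and on the surrogate variables. Without the 3 (B6 X B6.A14)F1 mice with the lowest hepatocyte marker sum, a choice made after seeing the data, 105 genes were called, with 45 above and 60 below the sum, so the balance turned. With 10 surrogate variables 5 genes were called (1 above, 4 below), and with none 1500 (894 above, 606 below). Leaving out 1 double CSS mouse at a time gave between 313 and 634 calls. The calls of the double CSS against B6 were 70 without those 3 mice and 61 with 10 surrogate variables, but fell to 28 without the third double CSS mouse, which had the deepest library, and were 40 without surrogate variables (19 higher, 21 lower). DESeq2's Wald test called 98 (46 higher, 52 lower). Across all 15 alternatives, 15 of the 70 genes were called every time in the same direction, and all 15 lie on chromosome 10 or 14. Of the 553 interaction genes, 2 were called every time and 37 in every alternative other than the model with 10 surrogate variables. One alternative set a count minimum and left genes of low level untested. These were counted as not called, so absence from these counts is not always a failed test.

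On chromosome 14, the genes that rose in the double CSS included Arhgef40, which encodes a guanine nucleotide exchange factor (chr14:51984719-52006251, GRCm38). Its levels in the 5 mice were 18, 15.7, 16.5, 16.1 and 18.7 CPM, against 6.90, 8.64 and 10.8 in B6 (lowest, median, highest), 12.7, 14.6 and 18.7 in (B6 X B6.A14)F1 and 8.87, 11.9 and 13 in (B6.A10 X B6)F1. Every double CSS mouse was above every B6 mouse and within or above the range of the chromosome 14 strain. The log2FC was 0.90 ± 0.09 (FDR = 1.05e-13), beside 0.85 for chromosome 14 and 0.41 for chromosome 10 alone. Spata13, another exchange factor, was at 30.9, 33.1, 33.5, 36.9 and 27.4 CPM against 17.5, 23.1 and 31.9 in B6 (log2FC 0.44 ± 0.08, FDR = 1.05e-05). Socs4, a suppressor of cytokine signalling, rose by a log2FC of 0.36 ± 0.07 (FDR = 8.93e-05), and Haus4, a subunit of the augmin complex of the spindle, by 0.39 ± 0.10 (FDR = 0.00525). Wnt5a, a secreted Wnt ligand of low level chosen after its values were seen, was at 1.27 to 1.99 CPM in the double CSS and at 0.320 to 1.16 in B6, so that the groups did not overlap (log2FC 1.31 ± 0.25, FDR = 8.65e-05).

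Of the lower genes on chromosome 14, 2 were neighbours. Ccdc122, a coiled-coil protein gene, was at 4.87, 3.30, 4.38, 4.55 and 4.47 CPM in the double CSS, below all mice of B6 (6.13, 7.63 and 9.77), of (B6 X B6.A14)F1 (5.12, 6.48 and 8.16) and of (B6.A10 X B6)F1 (5.26, 7.08 and 8.72). Its log2FC of -0.80 ± 0.12 (FDR = 7.16e-08) stood beside -0.41 and -0.25 for the single effects, and the interaction of -0.15 ± 0.17 was not called (FDR = 0.671). Lacc1, an enzyme of macrophage purine metabolism whose annotated start overlaps that of Ccdc122 on the opposite strand, fell by 0.62 ± 0.13 on the log2 scale (FDR = 0.000264). Pcdh17, a protocadherin, was at 3.06, 2.90, 2.86, 2.81 and 2.48 CPM against 3.59, 5.72 and 9.72 in B6, and fell by 1.08 ± 0.18 (FDR = 3.57e-06). Fbxo34, Tmem260 and the noncoding Gm26782 were the other lower genes of this chromosome called under every alternative.

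On chromosome 10, Vnn3, a pantetheinase gene, was at 52.8, 61.7, 53.9, 58.5 and 64.6 CPM in the double CSS, below all B6 mice (66.2, 96.3 and 113) and within the range of (B6.A10 X B6)F1 (46.5, 55.8 and 61.7) apart from 1 mouse above it. It fell by 0.72 ± 0.11 on the log2 scale (FDR = 4.30e-07), beside -0.70 for chromosome 10 and -0.31 for chromosome 14. Nhsl1, a regulator of cell migration, fell by 0.66 ± 0.13 (FDR = 8.65e-05) with levels of 4.05 to 5.96 CPM against 5.20 to 12.1 in B6. Apon, an apolipoprotein gene, was at 358.8, 335.2, 354.6, 412.4 and 367.6 CPM, against 161.3, 283.9 and 364.1 in B6 and 139.5, 242.6 and 294.4 in (B6 X B6.A14)F1, which the double CSS did not overlap. Its single effects were opposite, -0.31 for chromosome 14 and 0.35 for chromosome 10, and the double CSS differed from B6 by 0.37 ± 0.08 (FDR = 0.000373). Of genes chosen after their values were seen, Stat2, a transducer of interferon signals, was higher by 0.29 ± 0.09 (FDR = 0.0434), and Rdh1, a retinol dehydrogenase, by 1.04 ± 0.24 (FDR = 0.00208) at levels of 1.09 to 1.52 CPM.

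Of the 70 genes called against B6, 3 were also called in the interaction, a share similar to the 553 of all 13289 genes (4.16%). All 3 lie on chromosome 10. Armt1, a carboxyl methyltransferase gene, was at 23.2, 19.8, 17.7, 21.2 and 17.1 CPM in the double CSS, above every (B6 X B6.A14)F1 mouse (14, 15.7 and 16.5). The fitted values were 0.28 ± 0.06 for the double CSS (FDR = 0.00245), -0.12 and 0.04 for the single effects, and 0.36 ± 0.10 for the interaction (FDR = 0.0289). Itga7, an integrin subunit, was at 8.743, 8.751, 10.01, 8.957 and 8.604 CPM against 4.273, 6.592 and 10.54 in B6, with a double CSS log2FC of 0.43 ± 0.11 (FDR = 0.00834) and an interaction of 0.62 ± 0.18 (FDR = 0.0314). Apof, a lipid transfer inhibitor carried on lipoproteins, had 0.19 against B6 (FDR = 0.0318) and an interaction of 0.33 ± 0.09 (FDR = 0.0276). None of these 3 interactions was called with 10 surrogate variables or without the 3 chromosome 14 mice. All comparisons here share the B6 mice, so these values are given side by side and not as separate evidence.

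**Figure D2:**
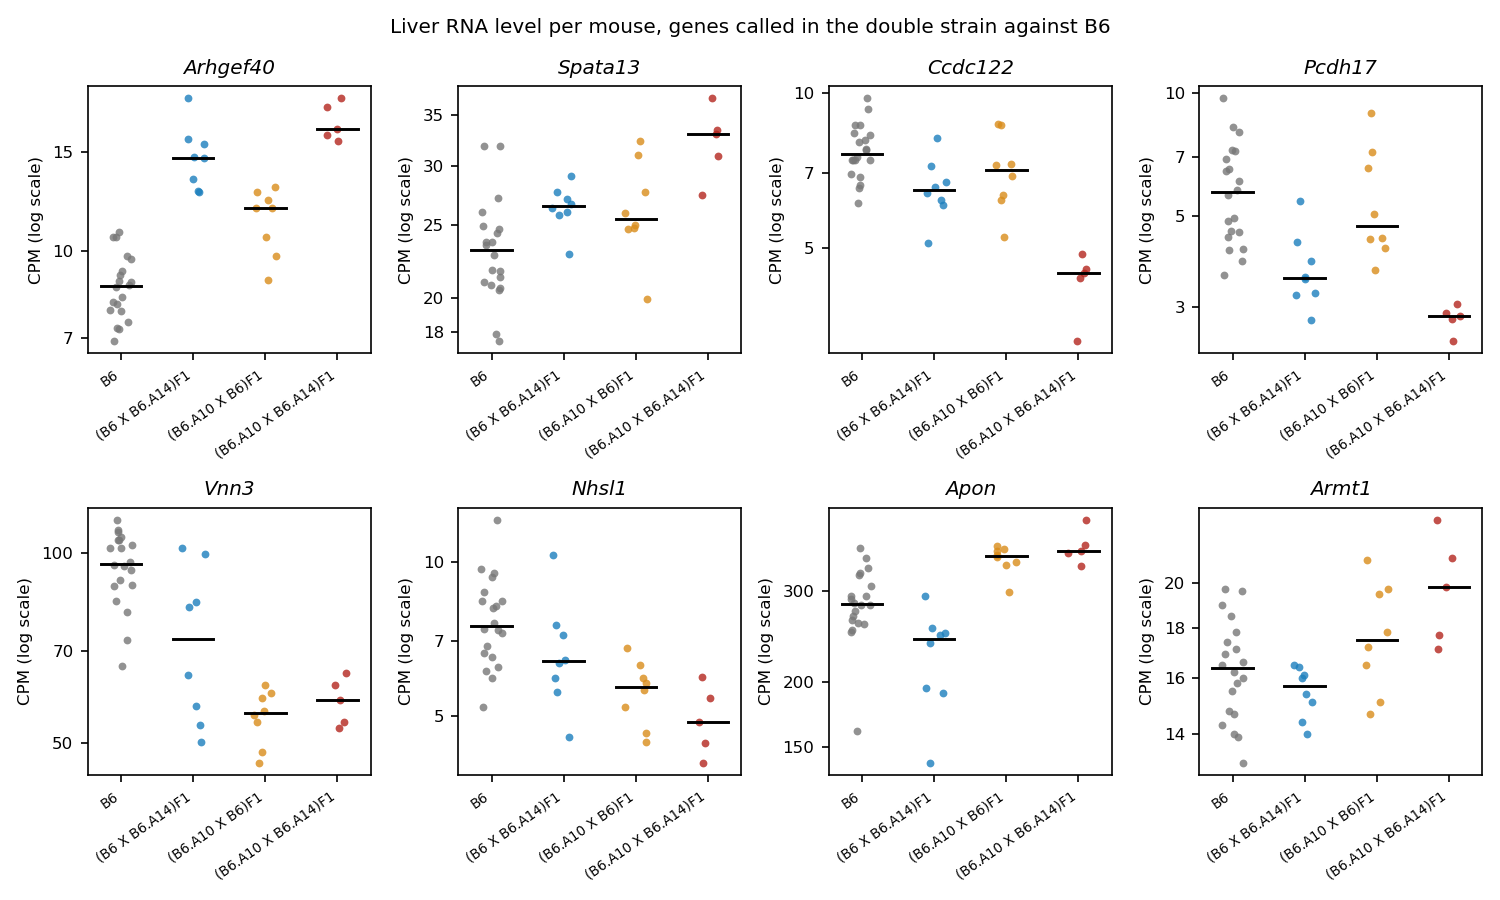
CPM per mouse on a log axis for 4 genes of chromosome 14 (upper row) and 4 of chromosome 10 (lower row) in B6 (grey, 20 mice), (B6 X B6.A14)F1 (blue, 8), (B6.A10 X B6)F1 (orange, 8) and (B6.A10 X B6.A14)F1 (red, 5), with a line at each median. Arhgef40, Ccdc122, Pcdh17 and Vnn3 show no overlap between the double CSS and B6, and the other 4 genes overlap with B6.

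Elsewhere in the genome, where the FDR was adjusted separately, 9 genes were called higher than in B6 and none was called lower. The largest was Rprl3, an RNase P RNA gene on chromosome 8 (chr8:3803069-3803358). It was at 59.04, 44.74, 53.99, 69.46 and 67.17 CPM in the double CSS and at 47.42, 86.62 and 130.8 in (B6 X B6.A14)F1, but at no more than 0.461 in B6 and 0.492 in (B6.A10 X B6)F1. The fitted log2FC was 8.68 ± 0.24 in the double CSS (FDR = 9.22e-67) and 9.46 for chromosome 14 alone. These values and the ± depend on the prior count, since B6 mice had counts near 0, so the ± is no measure of precision here. The interaction of -1.20 ± 0.79 was not called for Rprl3 (FDR = 0.405). Its relative Rpph1, the main RNase P RNA gene, lies on chromosome 14 (chr14:50807449-50807767) and was at 870 to 1370 CPM in the double CSS and 705 to 2300 in B6 (log2FC -0.34, FDR = 0.513). The opening stretch of both annotated transcripts (GENCODE vM21), shown because reads of the 2 genes could be exchanged, differ at 12 positions, which are in capitals.
Rprl3: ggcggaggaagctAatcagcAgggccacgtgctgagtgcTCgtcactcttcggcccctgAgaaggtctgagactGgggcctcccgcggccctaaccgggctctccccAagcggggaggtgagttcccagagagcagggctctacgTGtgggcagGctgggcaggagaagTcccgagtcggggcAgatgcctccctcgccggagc
Rpph1: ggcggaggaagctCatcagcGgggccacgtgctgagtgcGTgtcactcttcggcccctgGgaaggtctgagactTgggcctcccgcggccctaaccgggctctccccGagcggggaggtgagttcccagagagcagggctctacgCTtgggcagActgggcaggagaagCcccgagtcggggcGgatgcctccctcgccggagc
No window of 50 bases, the read length, is identical between the 2 reference transcripts, but reads from an A/J copy of chromosome 14 were not examined, so the level of Rprl3 is uncertain.

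Of the other 8, 5 lie on chromosome 11, which is 0.49% of its 1020 tested genes, beside 0.0735% of all genes off the substituted chromosomes. They lie between 78465697 and 103112200, a stretch with 269 tested genes whose ends were set by the called genes themselves. Stat5a, a transducer of growth hormone signals, was at 11.7, 11.4, 11.1, 11 and 10.8 CPM in the double CSS, above all mice of (B6 X B6.A14)F1 (5.94, 7.40 and 8.83) and of (B6.A10 X B6)F1 (6.54, 9.35 and 10.3), and against 5.12, 7.79 and 10.8 in B6. Its log2FC was 0.49 ± 0.11 (FDR = 0.0168). Slc46a1, the proton-coupled folate transporter, had 0.31 (FDR = 0.0129) and Acbd4, an acyl-CoA binding protein gene, 0.36 (FDR = 0.000701). Lasp1, an actin-binding protein gene, and Fbxo47, an F-box protein gene 15.1 kb beyond it, did not vary as the strains did. In the double CSS, Fbxo47 was at 0.811, 0.695, 9.55, 9.0 and 0.579 CPM, and Lasp1 at 73.9, 68.8, 123, 92.3 and 76.1, so the third and the fourth mouse were highest for both genes. In (B6.A10 X B6)F1, the mice numbered 6 and 7 had 10.7 and 11.2 CPM of Fbxo47 and 98.2 and 112 of Lasp1, while the other 6 had 0.635 to 0.985 and 46.9 to 72.8. No mouse of B6 or (B6 X B6.A14)F1 exceeded 1.6 CPM of Fbxo47. The log2FC of Fbxo47 was 2.5 ± 0.34 (FDR = 1.31e-07), and 1.99 or 1.96 without the third or without the fourth mouse. That of Lasp1 was 0.51 ± 0.10 (FDR = 0.00323), and it was no longer called without the third (FDR = 0.235) or the fourth (FDR = 0.0759). The labels do not tell what these mice share.

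The remaining genes were Zkscan3, a zinc finger gene on chromosome 13 (log2FC 0.46 ± 0.08, FDR = 5.68e-05), Mib2, a ubiquitin ligase gene on chromosome 4 (0.36, FDR = 0.0256), and Gas6, a ligand of the TAM receptor kinases on chromosome 8. Zkscan3 was at 64.6 to 88.8 CPM in the double CSS and 73.5 to 102 in (B6.A10 X B6)F1, with chromosome 10 alone at 0.44 and chromosome 14 alone at -0.01. Gas6 was at 17.4, 17.3, 17.9, 21.8 and 18.3 CPM in the double CSS against 7.32, 12.5 and 18.1 in B6 (log2FC 0.53 ± 0.12, FDR = 0.0177), beside 0.00 and 0.13 for the single effects. These 9 genes were listed after their values were seen.

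At most genes called in the interaction, the fitted effects of both single substitutions had the same sign and the double CSS was near B6. A single effect was itself called for chromosome 14 at 474 of the 553, for chromosome 10 at 147, for both at 110 and for neither at 42. By sign alone, 205 had both fitted single effects above 0 and 299 both below 0, beside 3809 and 3961 of all 13289 genes. The median absolute single effect was 0.35 for chromosome 14 and 0.17 for chromosome 10, beside 0.13 and 0.10 over all genes. The median absolute difference of the double CSS from B6 was 0.08, as it was over all genes. The double CSS was closer to B6 than the sum of the single effects at 546 genes (98.7%), against 9798 of all 13289 genes (73.7%). Of the 553, 436 (78.8%) had at least 1 called single effect and an unadjusted p-value above 0.1 for the double CSS against B6, which held for 2761 of all 13289 genes (20.8%). These shares describe estimates that share mice, and the interaction itself subtracts both single effects, so they are no separate test.

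**Figure D3:**
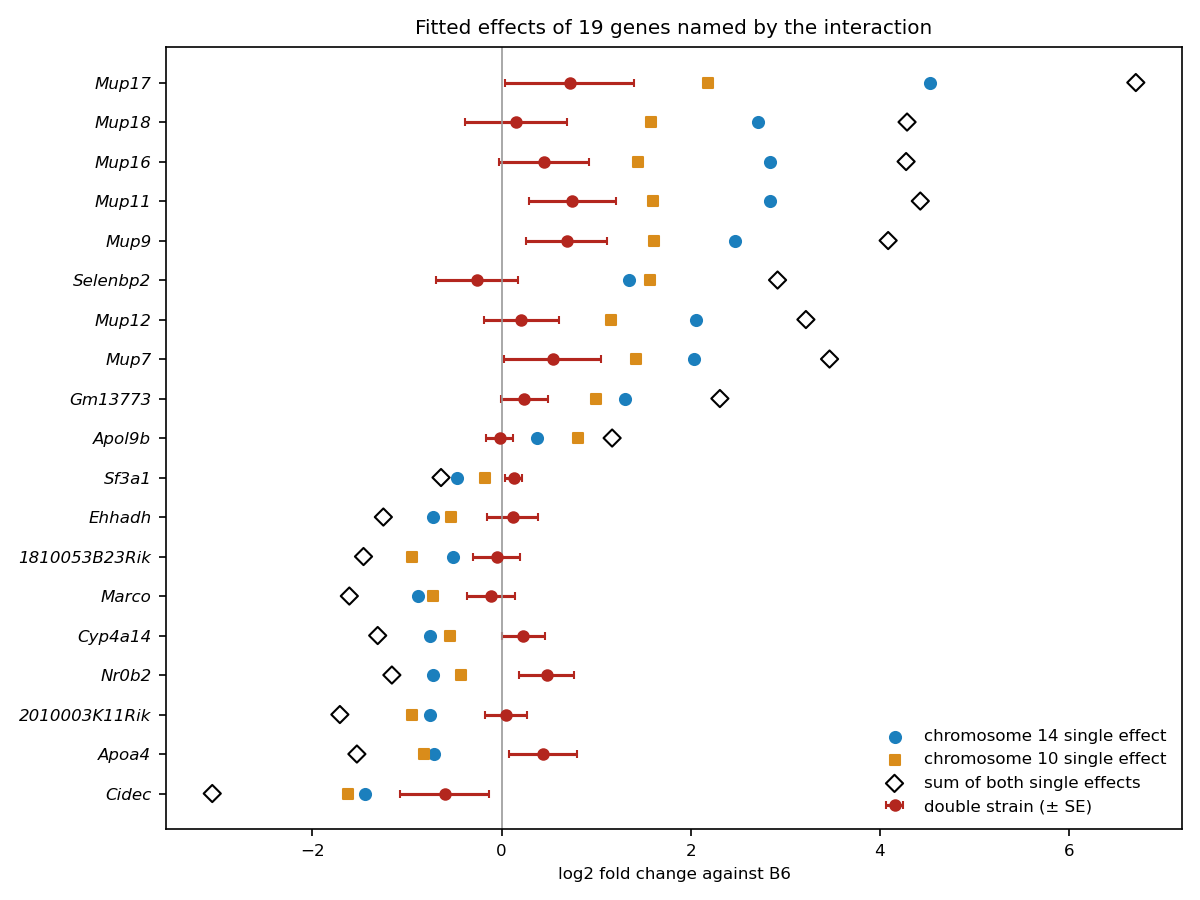
Fitted log2FC against B6 of 19 genes with called interactions, for chromosome 14 alone (blue), chromosome 10 alone (orange), their sum (open diamonds) and the double CSS (red, with SE). The double CSS lies near 0 for most genes, while the sums reach from about 6.71 for Mup17 to -3.06 for Cidec.

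The largest departures belonged to the major urinary proteins, small pheromone carriers made in the liver and encoded by a cluster on chromosome 4, where no strain here carried A/J sequence. Mup17 (chr4:61591929-61595871) was at 23.1, 8.46, 6.78, 20.2 and 34.2 CPM in the double CSS, against 8.79, 53.0 and 354 in (B6 X B6.A14)F1, 4.94, 12 and 49.2 in (B6.A10 X B6)F1 and 1.19, 4.82 and 99.9 in B6. The groups overlap widely, and 2 B6 mice are above every double CSS mouse. The fitted single effects were 4.53 and 2.18, the double CSS was at 0.72 (FDR = 0.766), and the interaction was -5.99 ± 1.13 (FDR = 0.00119). Without surrogate variables the interaction of Mup17 was -3.06 (FDR = 0.0510). Mup9 was at 7.21, 4.81, 4.01, 7.55 and 4.72 CPM, against 3.56, 10.1 and 36.2 in the chromosome 14 strain and 0.939, 2.85 and 9.51 in B6, with an interaction of -3.40 ± 0.65 (FDR = 0.00119). For Mup6 (as for Mup2 and Mup13) all double CSS mice, at 2.61 to 3.95 CPM, lay below the chromosome 14 strain (4.18 to 14.2), with an interaction of -2.32 ± 0.45 (FDR = 0.00119).

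Of 21 Mup genes and pseudogenes measured, 19 were below the sum and none above it, with a median interaction of -2.24 beside 0.01 over all genes. None was called by edgeR in the double CSS against B6 (median 0.32), where 2 had an unadjusted p-value under 0.05, beside 10.9% of all genes. Mup20, which encodes the male pheromone protein darcin, was not called (-1.92, FDR = 0.0639), nor was Mup-ps19 (-1.40, FDR = 0.132). With no surrogate variables 7 Mup genes were called, with 10 none, and without the 3 chromosome 14 mice 9. These genes share reads. In 15 of the 21, more than 50% of the 50-base windows of the annotated transcripts are found in another Mup gene (median 77.8%), so counts of single members are uncertain. The window below, from the coding part of Mup17, shows this, as it is held by 14 of the 21 genes.
Mup17 window: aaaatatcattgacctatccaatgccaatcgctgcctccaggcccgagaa

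Some male-biased genes outside the cluster were also below the sum. Selenbp2, a selenium-binding protein gene that is higher in males, was at 80.2, 49.3, 121, 58.5 and 29.5 CPM in the double CSS, against 57.0, 84.0 and 274 in the chromosome 14 strain and 7.13, 72.5 and 228 in B6, and its interaction was -3.18 ± 0.68 (FDR = 0.00366). Serpina12, a serpin (interaction -2.49), Ugt2b1, a glucuronosyltransferase (-1.05), Sult2a8, a bile acid sulfotransferase (-0.86), and C6, a complement component (-1.30), were also below the sum. In all, 8 of 32 measured male-biased genes were below and none above the sum (median -0.85), and 3 of these 8 are Mup genes. Of the 32, 3 were called without the 3 chromosome 14 mice, 4 without the first double CSS mouse, 1 without surrogate variables and none with 10. Of 32 female-biased genes, 2 were above the sum and none below (median 0.42), with none called without the 3 chromosome 14 mice. Of 20 genes of the growth hormone axis, Igf1 (-0.54 ± 0.15, FDR = 0.0268) and Ghr, the receptor (-0.46 ± 0.13, FDR = 0.0320), were below the sum, and Hnf4a was above it (0.43, FDR = 0.0463). Of that axis, 1 gene was called without the 3 chromosome 14 mice, and none without the first or the fifth double CSS mouse. Akr1c6, a hydroxysteroid dehydrogenase, had a median of 472.6 CPM in the double CSS against 230.9, 484.6 and 809.6 in B6, with all 5 mice inside that range. It was at 477.8, 545.5 and 1190 in (B6 X B6.A14)F1 and 334.4, 463.3 and 629.1 in (B6.A10 X B6)F1, so the groups overlapped. The fitted single effects were 0.76 and 0.41, although the median of the chromosome 10 strain was below that of B6. The interaction, adjusted for surrogate variables unlike these levels, was -1.12 ± 0.22 (FDR = 0.00119). The gene was among the 5 called with 10 surrogate variables (FDR = 0.0455).

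Of 63 measured interferon-stimulated genes, the antiviral genes that interferons switch on, 10 were below the sum and none above it (median -0.33). Apol9b was at 19.1, 19.8, 20.6, 19.7 and 21.5 CPM in the double CSS, below every mouse of (B6.A10 X B6)F1 (25.7, 28.4 and 33.7) and amid those of (B6 X B6.A14)F1 (16.8, 20.9 and 29.7) and B6 (9.70, 19.4 and 30.1). Its interaction was -1.19 ± 0.21 (FDR = 0.000592), with fitted single effects of 0.37 and 0.81 and a double CSS at -0.02. It was called under each of the 15 alternatives, with -0.68 without surrogate variables, -0.98 with 10, and -1.32 without the 3 chromosome 14 mice. Apol9a was at 7.66, 6.90, 7.90, 8.5 and 9.27 CPM, again below all (B6.A10 X B6)F1 mice (9.69, 12.2 and 14.9), with an interaction of -1.23 ± 0.28 (FDR = 0.00561). The 2 genes share 975 of their 50-base windows, which is 52.3% of those of Apol9b, so they are not independent. Irf7, the transcription factor that amplifies the response, was at 16, 17.9, 14.1, 15.4 and 14.6 CPM against 16.5, 19.3 and 23.7 in the chromosome 10 strain, with an interaction of -0.87 ± 0.18 (FDR = 0.00181).

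Among the 10 were also Gbp10 (-1.94), Gbp6 (-1.27), Ifi47 (-0.90), Ifi44 (-0.78), Rtp4 (-0.76) and Ifit2 (-0.68). Without the 3 chromosome 14 mice 9 were called, without the first double CSS mouse 5, without the third 6, without surrogate variables 6 and with 10 surrogate variables 2. Chromosome 10 alone raised 22 of the 63 and lowered none, beside 882 of all 13289 genes (6.64%) called in either direction. Against B6, the double CSS had 1 higher gene, Stat2, which lies on chromosome 10. Of 27 antigen presentation genes, none was called in the interaction by edgeR or DESeq2 (median -0.12), while 1 was called without the 3 chromosome 14 mice. An unadjusted p-value under 0.05 was found for 2 of the 27, beside 19.8% of all genes. The promoters of Apol9b (chr15:77728822-77729121, plus strand) and Apol9a (chr15:77411031-77411330, minus strand), taken from RefSeq on GRCm38.p6 as 250 bases before to 50 after the start, are shown because both hold the interferon response motif, which is GAAA, any 2 bases and GAAA again (read on both strands, in capitals), as 2 overlapping matches.
Apol9b: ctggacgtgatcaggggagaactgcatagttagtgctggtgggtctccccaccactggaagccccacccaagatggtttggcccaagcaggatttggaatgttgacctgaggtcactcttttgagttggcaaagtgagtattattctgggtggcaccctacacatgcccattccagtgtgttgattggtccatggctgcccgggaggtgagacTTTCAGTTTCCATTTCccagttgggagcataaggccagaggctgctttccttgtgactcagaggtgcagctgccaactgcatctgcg
Apol9a: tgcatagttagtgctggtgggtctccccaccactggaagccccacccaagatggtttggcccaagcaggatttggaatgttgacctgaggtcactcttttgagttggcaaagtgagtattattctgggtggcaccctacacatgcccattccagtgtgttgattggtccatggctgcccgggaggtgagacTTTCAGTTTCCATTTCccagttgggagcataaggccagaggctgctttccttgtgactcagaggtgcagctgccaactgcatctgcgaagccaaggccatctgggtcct
Of all 32851 promoters of this length, 3.44% hold the motif. It was found for 2 of the 6 called interferon-stimulated genes with a promoter entry and for 22 of 39 that were not called, and not in the window of Irf7. A match is a description of the letters and not of binding.

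**Figure D4:**
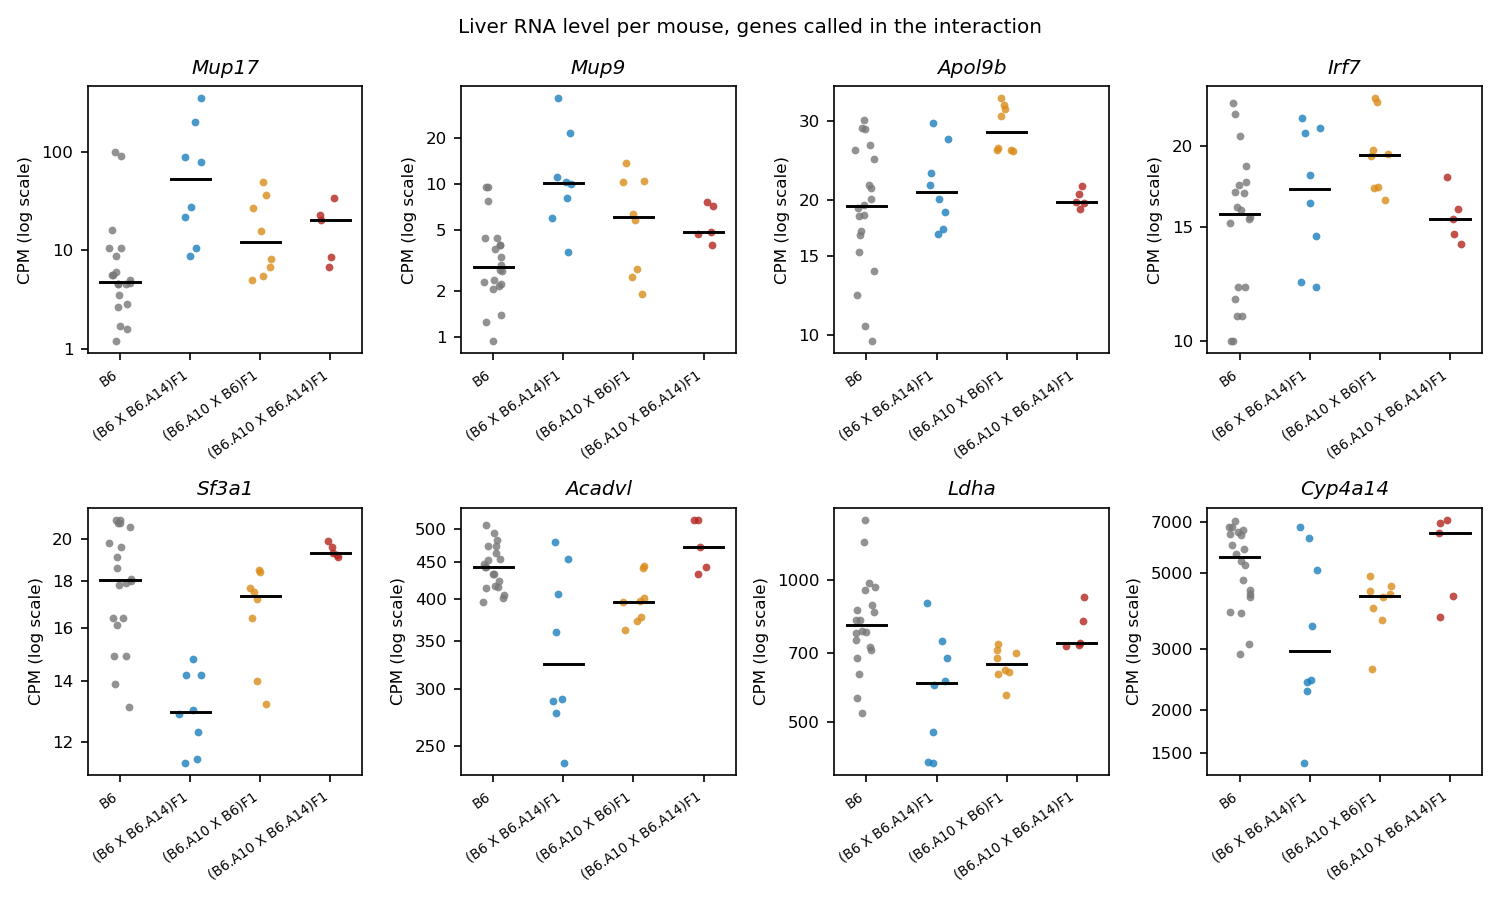
CPM per mouse on a log axis for 8 genes called in the interaction, in B6 (grey, 20 mice), (B6 X B6.A14)F1 (blue, 8), (B6.A10 X B6)F1 (orange, 8) and (B6.A10 X B6.A14)F1 (red, 5), with a line at each median. All double CSS mice lie below the chromosome 10 strain for Apol9b and above the chromosome 14 strain for Sf3a1, and Mup17 and Cyp4a14 overlap across all strains.

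Among genes of fatty acid use, the calls were above the sum. Cyp4a14, a fatty acid omega-hydroxylase and PPARalpha target, was at 6520, 7120, 3720, 4290 and 6970 CPM in the double CSS, against 1410, 2970 and 6780 in (B6 X B6.A14)F1, 2630, 4290 and 4880 in (B6.A10 X B6)F1 and 2900, 5540 and 7070 in B6. The interaction was 1.54 ± 0.36 (FDR = 0.00876), the single effects -0.76 and -0.55, and the groups overlapped. Acadvl, the very long-chain acyl-CoA dehydrogenase, was at 472.7, 516.4, 444.2, 434.1 and 516.3 CPM, against 236.9, 325.5 and 480.6 in the chromosome 14 strain and 397.2, 443.0 and 507.7 in B6, with an interaction of 0.47 ± 0.10 (FDR = 0.00183). Acadl, the long-chain acyl-CoA dehydrogenase, had 0.60 ± 0.14 (FDR = 0.00902), Ppara itself 0.62 ± 0.16 (FDR = 0.0155), Ehhadh 1.36 ± 0.42 (FDR = 0.0413), and Cidec, a lipid droplet protein, 2.46 ± 0.70 (FDR = 0.0279). Altogether 18 of 47 genes of this list were above the sum and none below (median 0.45). None was called against B6 in the double CSS by edgeR, where 6 had an unadjusted p-value under 0.05, beside 10.9% of all genes. Without the 3 chromosome 14 mice 1 of the 47 was called, with 10 surrogate variables none and without surrogate variables 18. Leaving out the second or the fifth double CSS mouse left 10 calls, and leaving out the first 11. Those 3 mice were the ones with the lowest hepatocyte marker sum, and its part in these calls was not tested beyond leaving them out.

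Some genes of glucose handling and other hepatocyte functions were above the sum as well. Ldha, lactate dehydrogenase A, was at 735, 728, 724, 918 and 817 CPM in the double CSS, against 409, 603 and 890 in (B6 X B6.A14)F1 and 521, 799 and 1340 in B6, with an interaction of 0.81 ± 0.17 (FDR = 0.00209). In all, 7 of 27 glycolysis genes (among them Pgam1, Eno1 and Gapdh besides Ldha) and 6 of 25 gluconeogenesis genes (among them Pcx, pyruvate carboxylase, 0.67, and Slc37a4, the glucose-6-phosphate transporter, 0.67) were above the sum and none below. Mat1a on chromosome 14, which makes the methyl donor S-adenosylmethionine, was at 7270 to 10400 CPM in the double CSS and 3070, 7290 and 10900 in the chromosome 14 strain (interaction 0.79 ± 0.18, FDR = 0.00816). Of 57 genes of amino acid catabolism and the urea cycle, 10 were above the sum, among them Cps1 (0.64), Got2 (0.47) and Arg1 (0.37), and 1 below, Otc (-0.41). Of 39 acute-phase genes 6 were above, among them C3 (0.59), Lbp (0.54) and Alb (0.56), which falls in inflammation. Without the 3 chromosome 14 mice, 1 glycolysis gene, no gluconeogenesis gene, 1 amino acid gene and 1 acute-phase gene were called, and with 10 surrogate variables none of these lists had a call. Leaving out the third double CSS mouse left 4 glycolysis, 3 gluconeogenesis, 6 amino acid and 4 acute-phase genes. Leaving out the second left 4 gluconeogenesis and 6 amino acid genes, leaving out the fifth 4 glycolysis and 7 amino acid genes, and leaving out the fourth 3 acute-phase genes. Among the 20 hepatocyte markers themselves, Cps1, Alb and Hnf4a were above the sum and none below (median 0.19).

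**Figure D5:**
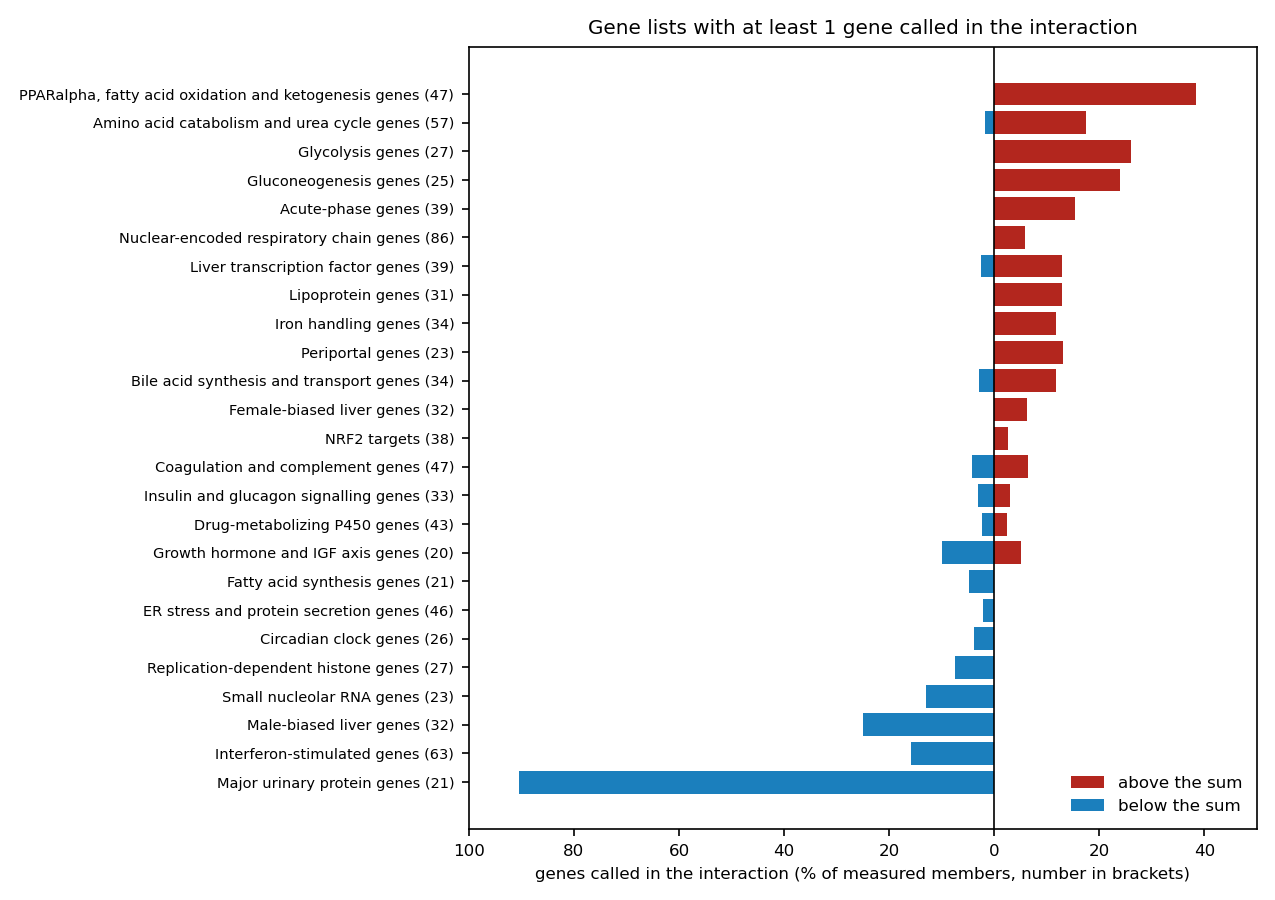
Share of measured members called in the interaction, in percent, for each gene list with at least 1 call, with members above the sum to the right (red) and below it to the left (blue), and the number measured in brackets. The Mup genes (19 of 21 below) and the PPARalpha list (18 of 47 above) have the largest shares, beside 2.45% above and 1.72% below over all genes.

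Sf3a1, a splicing factor subunit encoded on chromosome 11 (chr11:4160350-4182541), varied little among the double CSS mice. They were at 19.6, 19.9, 19.2, 19.3 and 19.1 CPM, above every mouse of (B6 X B6.A14)F1 (11.4, 12.9 and 14.8) and of (B6.A10 X B6)F1 (13.2, 17.4 and 18.5), and within B6 (13.1, 18.1 and 21.0). The interaction was 0.78 ± 0.14 (FDR = 0.000592), and it was 0.69 without surrogate variables (FDR = 0.000350), 0.73 without the 3 chromosome 14 mice (FDR = 0.00589) and 0.46 with 10 surrogate variables (FDR = 0.0781). Among the 37 genes called in every alternative but that last one, named here after their values were seen, other RNA-binding or splicing genes were Puf60 (0.35 ± 0.08, FDR = 0.00711), Aqr (0.36 ± 0.09, FDR = 0.0111) and Rbm10 (0.64 ± 0.14, FDR = 0.00661). Rbm10 was at 15.7, 13.5, 13.5, 14.2 and 15.7 CPM in the double CSS and between 8.86 and 12.4 in the chromosome 14 strain. Eif4a2, a translation initiation helicase, was below the sum (-0.45 ± 0.10, FDR = 0.00522) at 218.1, 252.9, 235.2, 206.5 and 234.4 CPM, below all chromosome 10 mice (254.1 to 277.4).

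Other genes of these 37 above the sum were Klhl21, an adaptor of a ubiquitin ligase (0.99 ± 0.22, FDR = 0.00533), which at 34.9, 33.5, 36.6, 32.3 and 32.3 CPM lay above all mice of both single strains, Traf4, a signalling adaptor (0.58 ± 0.15, FDR = 0.0132), with the same absence of overlap, Creb3l2, a transcription factor of the secretory pathway (0.88 ± 0.21, FDR = 0.00876), B4galt5, a lactosylceramide synthase (1.0 ± 0.20, FDR = 0.00181), and Vasn, a binder of TGF-beta (1.21 ± 0.26, FDR = 0.00491). Below the sum were Ccdc90b (-0.64 ± 0.14, FDR = 0.00511), Zfp945, a zinc finger gene (-0.53 ± 0.13, FDR = 0.0123), which at 17.8 to 20.8 CPM lay below all mice of the chromosome 14 strain (22.1 to 33.6), Gbp11 (-1.46 ± 0.31, FDR = 0.00333), and the noncoding Gm13773 within the Mup cluster (-2.07 ± 0.39, FDR = 0.00119), which like Apol9b was called under all 15 alternatives.

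On the substituted chromosomes, 52 genes were called in the interaction. Besides those named above, Rb1, the retinoblastoma protein on chromosome 14, was at 13.1, 13.8, 13.2, 13.3 and 11.5 CPM in the double CSS, below every chromosome 10 mouse (14.4, 15.6 and 16.5), with an interaction of -0.46 ± 0.12 (FDR = 0.0111). Rrp1, a ribosome assembly factor on chromosome 10, was at 48.7 to 52.6 CPM against 33.5 to 48.3 in the chromosome 14 strain (0.37 ± 0.08, FDR = 0.00578). Sdr9c7, a short-chain dehydrogenase on chromosome 10, was raised by both single substitutions (1.05 and 0.61) and had an interaction of -1.26 ± 0.27 (FDR = 0.00578). Slc39a5, a zinc importer on chromosome 10 of low level and chosen after its values were seen, had 1.92 ± 0.45 (FDR = 0.00816) at levels of 0.531 to 1.85 CPM.

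Several other lists held no calls or a few, beside 553 of all 13289 genes (4.16%). The share called was above that of all genes in the bile acid, lipoprotein, iron, periportal, liver transcription factor, coagulation and small nucleolar RNA lists. None of 32 ATF4 targets, 26 cholesterol synthesis genes, 28 glucocorticoid-responsive genes, 26 pericentral genes, 48 cell cycle genes or 81 cytoplasmic ribosomal protein genes was called in the interaction by edgeR or DESeq2. Unadjusted p-values under 0.05 were found for 5, 3, 5, 5, 4 and 4 of them in that order, beside 2635 of all 13289 genes (19.8%). With no surrogate variables 7 ATF4 targets, 3 glucocorticoid-responsive genes and 1 each of the cholesterol synthesis, pericentral and cell cycle genes were called, and no ribosomal protein gene. Small numbers were called of 46 endoplasmic reticulum genes (1 below), 21 fatty acid synthesis genes (1 below, Mlxipl, -0.52), 33 insulin and glucagon genes (1 each way), 26 clock genes (1 below), 43 drug-metabolizing P450 genes (1 each way), 38 NRF2 targets (1 above, Hmox1, 0.88), 34 bile acid genes (4 above, among them the repressor Nr0b2 at 1.64, and 1 below, Akr1c6), 31 lipoprotein genes (4 above, among them Apoa4 at 1.97), 34 iron genes (4 above, among them the transferrin receptor Tfrc at 1.05), 23 periportal genes (3 above), 39 liver transcription factor genes (5 above, 1 below), 47 coagulation and complement genes (3 above, 2 below), 86 respiratory chain genes (5 above), 27 histone genes (2 below, among them Hist1h1c at -1.0) and 23 small nucleolar RNA genes (3 below, among them Snord13 at -2.17). When the 3 chromosome 14 mice were left out, 1 bile acid gene was called and no gene of the other lists in this paragraph. Without surrogate variables 15 coagulation and complement genes, 13 respiratory chain genes and 8 NRF2 targets were called, but no small nucleolar RNA gene.

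Among the largest interactions, that of Marco, a scavenger receptor of macrophages, depended on 1 mouse. It was at 20.9, 58.7, 18.7, 19.2 and 18.7 CPM in the double CSS and at 15.5, 16.9 and 24.2 in the chromosome 14 strain (interaction 1.5 ± 0.39, FDR = 0.0154). Without the second mouse the interaction of Marco was 1.18 (FDR = 0.0856). The unnamed transcripts 2010003K11Rik (1.76 ± 0.34, FDR = 0.00119) and 1810053B23Rik (1.41 ± 0.37, FDR = 0.0172) were above the sum, and without surrogate variables they were at 0.88 (FDR = 0.131) and 0.13 (FDR = 0.89).

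Finally, the interaction was set against those of other crosses. Compared with the mean interaction of chromosome 14 with chromosomes 4, 5 and 8, no gene differed by edgeR (0.0%). In that test 1488 genes had an unadjusted p-value under 0.05, and DESeq2's Wald test called 21. The 8 chromosome 14 mice and the B6 mice enter both sides alike, so their strain means cancel, though all mice still share the surrogate variables. Compared with the mean interaction of chromosome 10 with chromosomes 3, 6 and 17, 294 genes differed (2.21%). Here the means of the 8 chromosome 10 mice and of B6 cancel, while the chromosome 14 mice enter only 1 side. The counts of both comparisons are therefore not alike, and whether these genes are particular to this pair of chromosomes was not tested. Among the 294 genes were Sf3a1 (0.55, FDR = 0.00757), Mup17 (-3.34, FDR = 0.0425) and Acadvl (0.36, FDR = 0.0131). Without the 3 chromosome 14 mice that count was 0, without the fifth double CSS mouse 35, and with 10 surrogate variables 6. The interferon-stimulated Apol9b did not differ from the other crosses with chromosome 10 (FDR = 0.504), and its unadjusted p-value against the other crosses with chromosome 14 was 9.9e-05.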

How the data were processed

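Liver RNA of male mice was measured by stranded total RNA sequencing. The authors aligned single-end reads with TopHat2 to mm10, then to a genome carrying the A/J variants, and assigned them to genes with HTSeq, and the deposited values are raw counts per gene for 13289 genes. Samples were grouped by the strain in their labels. The counts were normalized with TMM and fitted with edgeR 4.0.16 in R 4.3.3 (quasi-likelihood F-test) whose terms were the 8 single chromosome effects, their 15 interactions and 5 surrogate variables estimated with sva 3.50.0. The Benjamini-Hochberg adjustment was run once for genes on the substituted chromosomes and once for the rest, and an FDR of 0.05 was the threshold. CPM values use TMM library sizes. Positions of 13242 genes came from GENCODE vM21 (GRCm38, the same assembly as mm10), and 47 genes had none.

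The genes named by rule had an average log2 CPM of at least 2, except members of the Mup family, all of which the rule admits. They were those with the 8 highest and the 8 lowest called interactions, the 6 smallest interaction p-values, the 4 highest and 4 lowest called differences from B6, the 4 smallest p-values against B6 on each substituted chromosome, and up to 4 members of each list by interaction p-value. Other genes, marked as such or described as calls under every alternative, off the substituted chromosomes, as calls on chromosome 10 or 14 or as members of a list, were chosen after their values were seen. The members and gene lists were chosen with earlier results of these data known.

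The alternatives were 0 or 10 surrogate variables, DESeq2 1.42.0 size factors or Wald test, a minimum of 15 counts in 75% of mice, 1 adjustment over all genes, the newer edgeR dispersion method, a fit of the 4 strains alone, and leaving out mice. On simulated counts for the interaction over 13289 genes, 93 of 100 genes with a log2 change of 1 and 68 of 100 with 0.5 were recovered, and 11 unchanged genes were called. The simulated mice had a common mean per gene, without single strain effects or variation shared between genes. These rates therefore need not hold for the real mice. Within each of the 4 strains compared, no libraries were duplicates of each other. Pairs across strains and mice of the other strains were not checked. The p-values rest on the spread between mice within strains, estimated over all 154 mice after the surrogate variables were fitted. Nothing in the labels says how mice were spread over litters or runs. A litter or run shared by mice of a strain therefore cannot be told apart from the strain. Some named items are not reported here.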

Additional observations from a re-analysis of the deposited data

Results flagged for a closer look

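Among 81 named genes and 243 groups of mice checked, 16 had 1 mouse far from the others of its strain by Dixon's test. Chance gives about 1 in 20 groups. In (B6.A10 X B6.A14)F1 the mouse set apart was the highest for Marco (58.7 CPM), Gas6 (21.8 CPM) and Itga7 (10.01 CPM) and the lowest for Ccdc122 (3.30 CPM), Avl9 (31.2 CPM) and Slc46a1 (20.1 CPM). In (B6.A10 X B6)F1 it was the highest for Rbm10 (13.5 CPM) and the lowest for Cyp4a14 (2630 CPM), Apon (299 CPM), Oplah (112 CPM), Stat5a (6.54 CPM), Mib2 (8.88 CPM) and Wnt5a (0.242 CPM). In (B6 X B6.A14)F1 it was the highest for Mup6 (14.2 CPM) and Haus4 (11.8 CPM) and the lowest for Stat2 (17.7 CPM).

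For 20 named genes, the interaction of chromosomes 14 and 10 differed from the mean interaction of chromosome 10 with the other chromosomes by edgeR's quasi-likelihood test, and the values are that difference on the log2 scale. It was negative for Mup17 (-3.34), Mup18 (-2.67), Mup16 (-2.31), Selenbp2 (-1.99), Mup9 (-1.87), Mup6 (-1.33), Sdr9c7 (-0.86), Ccdc90b (-0.45), Rb1 (-0.43), Zfp945 (-0.40) and Avl9 (-0.39). It was positive for 2010003K11Rik (1.04), Fmo4 (0.67), Lrig1 (0.63), Itga7 (0.59), Sf3a1 (0.55), Ldha (0.51), Acadvl (0.36), Aqr (0.30) and Rrp1 (0.27). The chromosome 14 mice enter only 1 side of this comparison. Without the 3 of them with the lowest hepatocyte marker sum, none of the 13289 genes was called in it by edgeR, and 1158 had an unadjusted p-value under 0.05.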

How the results depend on the processing

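Interaction calls (553) were 1500 with no surrogate variables (300 shared), 5 with 10 (4 shared), 105 without 3 mice of (B6 X B6.A14)F1, and 313 to 634 without 1 double CSS mouse, and 714 without the shallowest B6 mouse. The split of 325 above and 228 below the sum turned to 45 and 60 without the 3 mice and to 1 and 4 with 10 surrogate variables. The calls of the double CSS against B6 (70) were 40 with no surrogate variables and 28 to 66 without 1 double CSS mouse, or 67 without the shallowest B6 mouse, and their split of 39 higher and 31 lower turned to 19 and 21 with no surrogate variables and to 46 and 52 with DESeq2's Wald test. Chromosome 14 calls (2996) were 792 with 10 surrogate variables and 784 without the 3 mice, and chromosome 10 calls (882) were 368 in a fit of the 4 strains alone. Against other crosses with chromosome 14, the count of 0 became 3 with no surrogate variables, 20 with 10, 21 with DESeq2's Wald test, 8 with the count filter, 7 with the newer dispersion method, 5 without the 3 mice, 0 to 10 without 1 double CSS mouse and 12 without the shallowest B6 mouse. Against other crosses with chromosome 10, 294 became 6 with 10 surrogate variables, 0 without the 3 mice, and 35 to 247 without 1 double CSS mouse, or 303 without the shallowest B6 mouse. The share of interaction genes nearer to B6 than the sum (98.7%) was 96.2% with no surrogate variables and 100% with 10 and without the 3 mice. The share with a called single effect and an unadjusted p-value above 0.1 against B6 (78.8%) was 72.7%, 100% and 75.2% in these, 73.4% in the 4 strains alone and 77.7% to 84.1% without 1 double CSS mouse, or 80.0% without the shallowest B6 mouse. The causes were not tested.

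No paired analysis was possible because the mouse numbers were given in accession order and only name the mice. The depth of 5 double CSS mice limits small effects, as 68 of 100 simulated interactions of 0.5 were recovered even without variation shared between genes.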
